A study of Homo sapiens with 2 samples.

Results

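The tumour necrosis factor (TNF) superfamily consists of ligands such as TNF, FAS ligand and TRAIL, together with the receptors that bind them. Its members were taken from the deposited gene table by symbol, as every gene named TNFRSF or TNFSF followed by a number, plus TNF, LTA, LTB, LTBR, FAS, FASLG, CD27, CD70, CD40 and CD40LG. This gave 43 of 19220 genes: 25 receptors, 17 ligands and the read-through transcript TNFSF12-TNFSF13. They were followed in poly(A) RNA of H9, an established human T cell lymphoma line labelled wild type. One culture was exposed to 0.05 µM doxorubicin for 6 h (50174434 counts on genes) and the other was not exposed, at 0 h (33730703 counts). No untreated library was taken at 6 h, so doxorubicin and 6 h of culture cannot be told apart. The words "with doxorubicin" below cover both. Doxorubicin is an anthracycline that poisons topoisomerase II. Each condition had 1 library, so the study allows no test between them, no p-value is given, and every interval below covers counting error only.

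TNF superfamily ligands are mostly trimeric proteins on the cell surface or shed from it. Death receptors carry an intracellular death domain that recruits adaptors such as FADD or TRADD and, through caspase-8, can start apoptosis. Costimulatory receptors lack that domain, bind TRAF proteins and feed NF-kappaB signalling in activated T cells. Decoy receptors bind a ligand without passing a full signal.

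The label of a T cell line was set against marker genes. Of 12 T cell markers 9 reached 100 counts summed over both libraries, the minimum for calling a gene measured, while CD2, CD7 and CD28 had at most 13 counts in either library. By the rule given below, CD3G of these 9 was higher with doxorubicin (3134 treated and 931 untreated counts). TRAT1 was lower (306 treated and 328 untreated counts). Among all measured genes 7.26% were higher and 9.57% lower. After the adjustment for length and GC content given below, TRAT1 was at a log2 ratio of -0.24 and not called. CD3G (1.36) and CD247 (0.66) were then called higher. Of 6 B cell markers, PAX5 was at 0, and CD79A (6628 treated and 6007 untreated counts) and CD79B (1065 treated and 755 untreated counts) were measured. The 6 myeloid markers summed to 16 treated and 10 untreated counts. Of 6 pluripotent stem cell markers, NANOG was at 0 and 3 were measured, among them PODXL, which was higher with doxorubicin (1778 treated and 683 untreated counts). The part of these genes in the results below was not tested.

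Of the 43 members 23 were measured, 13 had 1 to 99 counts and 7 had 0 counts in both libraries. A member was called higher or lower when the ratio of treated over untreated counts, scaled by TMM, was at least 1.5-fold and its 95% counting interval excluded 1. By this rule 4 members were higher with doxorubicin, namely TNFRSF10A, TNFRSF11A, TNFRSF9 and TNFSF10. They were 17.4% of the measured members, against 7.26% of all 11244 measured genes. The 3 members called lower were LTB, TNFRSF12A and CD70, 3 of 23, beside 9.57% of all measured genes. Under scaling by total counts 5 members were higher (TNFRSF1B in addition) and 3 were lower, beside 9.64% and 7.58% of all measured genes. The median log2 ratio was 0.02 over the measured members and 0.007 over all measured genes. In bulk RNA, a change in the share of cells that make a transcript and a change in its amount per cell cannot be told apart.

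The 3 lower members have the 3 shortest transcripts of the 23 measured, at 897 bases for LTB, 913 for CD70 and 1033 for TNFRSF12A. Short transcripts were often lower throughout the table. Among 605 measured genes with transcripts of at most 1100 bases, 54.4% were called lower. The 2 longest belong to TNFRSF9 (5970 bases) and TNFRSF11A (8147 bases), both higher, and 16.6% of the 2732 measured genes with transcripts of at least 5000 bases were called higher. TNFSF10 (1953 bases) and TNFRSF10A (2714 bases) lie between, where 3.18% of 3683 genes with transcripts of 1500 to 3000 bases were called higher. Spearman's rho between transcript length and log2 ratio, as a description with genes sharing both libraries, was 0.55 over the 23 members and 0.55 over 11020 genes. The log2 ratios were therefore also adjusted for GC content and for transcript and coding length, with regression splines over all genes. After this adjustment 3 members were higher (TNFSF10, TNFRSF10A and CD40) and 0 were lower, beside 4.07% and 3.78% of all genes.

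**Figure D1:**
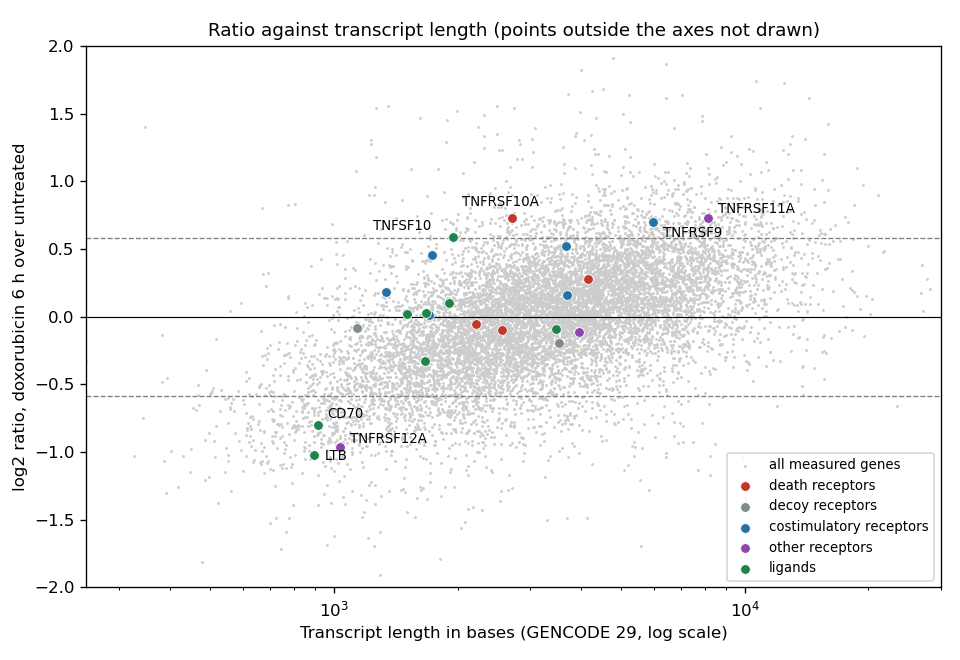
Each point is a measured gene, with its transcript length in bases on a log axis and its log2 ratio of doxorubicin over untreated on the vertical axis; grey points are all measured genes, coloured points the members by role, and dashed lines mark 1.5-fold. LTB, CD70 and TNFRSF12A lie at the short end among genes that are mostly below 0, TNFRSF9 and TNFRSF11A at the long end, and TNFSF10 and TNFRSF10A above most genes of their length.

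Promoters of 3 called members are printed here to show the sequence in front of genes that were higher or lower, next to that of LTA, a neighbour of LTB that was neither. They are the 250 bases before an annotated start, 5′ to 3′ on the gene's strand, from RefSeq on GRCh38.p14, where 15 of the 23 measured members were matched by symbol. Capitals mark matches to the kappaB consensus, the binding motif of NF-kappaB, or to TATAA, both searched on both strands. The windows are chr1:7940840-7941089 for TNFRSF9, chr3:172523431-172523680 for TNFSF10 and chr6:31582426-31582675 for LTB, all on the minus strand, and chr6:31572039-31572288 for LTA on the plus strand. LTA and LTB each have 2 annotated starts, of which 1 is shown. The other LTB window is offset by 1 base and holds the same match, and the other LTA window, chr6:31571849-31572098, holds TATAA but no kappaB match.
TNFRSF9: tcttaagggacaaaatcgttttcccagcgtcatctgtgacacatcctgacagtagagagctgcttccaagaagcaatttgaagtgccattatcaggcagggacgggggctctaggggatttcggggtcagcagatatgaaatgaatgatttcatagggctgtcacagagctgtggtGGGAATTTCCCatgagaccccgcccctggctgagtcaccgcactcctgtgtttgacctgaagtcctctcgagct
TNFSF10: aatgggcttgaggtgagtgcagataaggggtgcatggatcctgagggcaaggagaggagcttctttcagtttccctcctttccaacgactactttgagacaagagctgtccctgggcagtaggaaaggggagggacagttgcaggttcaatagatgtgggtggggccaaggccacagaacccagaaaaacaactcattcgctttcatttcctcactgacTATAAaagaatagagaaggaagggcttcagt
LTB: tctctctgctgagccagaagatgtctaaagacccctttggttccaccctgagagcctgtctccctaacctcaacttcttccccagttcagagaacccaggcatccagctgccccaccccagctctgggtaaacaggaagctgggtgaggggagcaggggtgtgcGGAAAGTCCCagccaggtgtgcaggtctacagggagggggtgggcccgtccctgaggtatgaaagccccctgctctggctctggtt
LTA: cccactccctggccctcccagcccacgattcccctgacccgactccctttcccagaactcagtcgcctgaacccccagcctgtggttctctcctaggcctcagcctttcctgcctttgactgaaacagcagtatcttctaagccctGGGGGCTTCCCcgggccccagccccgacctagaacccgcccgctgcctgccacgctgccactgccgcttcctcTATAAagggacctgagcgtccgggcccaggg
In TNFRSF9, higher with doxorubicin, 2 overlapping kappaB matches begin 74 and 73 bases before the start. In LTB, lower with doxorubicin, 1 match begins 86 bases before it. LTA, at a log2 ratio of 0.02, has in the window shown 2 overlapping matches from 104 and 103 bases and TATAA 31 bases before the start. TNFSF10 has no kappaB match in this window and TATAA 31 bases before the start. The window of TNFRSF11A, also called higher, is not printed and has no match to either motif. The 15 genes have 19 windows, since several have more than 1 annotated start. Some windows of FAS, LTA and LTB overlap within the gene, so the 19 are not independent. The kappaB consensus was present in 6 of these 19 windows, from 5 genes, and in 9.96% of 35116 RefSeq windows of the same length, and TATAA in 5 of the 19, from 4 genes, and in 18.9% of all windows. By the unadjusted calls, genes with a kappaB match in a window therefore included members that were higher, lower and neither. After adjustment for length and GC content TNFRSF9 (0.58) and LTB (-0.45) were neither, as were FAS, LTA and TNFRSF14. A match is a string of letters and was not tested for binding.

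Of the 6 death receptors 4 were measured, with 1 higher (TNFRSF10A), 0 lower and a median log2 ratio of 0.11. Over all measured genes 7.26% were higher and 9.57% lower, and 1 call in so few members says little about the class. TNFRSF10A, the TRAIL receptor DR4, had 1044 counts in treated cells and 404 in untreated cells, or 20.3 CPM in treated and 12.3 CPM in untreated cells (CPM being counts divided by the TMM-scaled library size). It was 1.66-fold higher with doxorubicin (1.48 to 1.86) and stayed past the limit after adjustment for length and GC content, at a log2 ratio of 0.65 (0.48 to 0.82). TNFRSF10B, the second TRAIL receptor DR5, had 3533 treated and 1871 untreated counts. Its 1.21-fold difference (1.14 to 1.28) was below the size limit, and its adjusted log2 ratio was 0.07 (-0.01 to 0.15). DR5 transcripts thus outnumbered those of DR4 in both libraries, at 43.6 and 19.7 TPM (a scale that divides counts by transcript length) in treated cells and 30.2 and 9.95 TPM in untreated cells.

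FAS, the receptor of FAS ligand, had the most counts of any receptor, with 18199 treated and 12509 untreated. Its log2 ratio of -0.10 (-0.13 to -0.07) was within the size limit, and it was 0.09 after adjustment, so FAS had no settled direction. The annotation places 8.93% of its exon bases under exons of ACTA2, which had 77435 treated and 70911 untreated counts, and the strand setting of the counting is unknown, so reads there could belong to either gene. TNFRSF1A, the main TNF receptor with a death domain, had 9344 treated and 6195 untreated counts. Its log2 ratio was -0.05, and 0.02 under total-count scaling. TNFRSF21 (DR6) had 32 treated and 12 untreated counts, a log2 ratio of 0.74 whose interval ran from -0.22 to 1.87. TNFRSF25 (DR3), a receptor on T cells, was not detected in either library, and 0 counts allow a level of at most 0.0584 CPM in treated and 0.0911 CPM in untreated cells.

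The decoy receptors were scarce, and neither of the 2 measured was called, beside 7.26% higher and 9.57% lower among all measured genes. TNFRSF10D, a TRAIL decoy with a truncated death domain, had 66 treated and 48 untreated counts and a log2 ratio of -0.19 (-0.74 to 0.39). TNFRSF10C, the TRAIL decoy anchored by lipid, had 0 treated counts and 1 untreated count, with 37.3% of its sampled stretches of 50 bases shared with other genes. TNFRSF11B (osteoprotegerin) had 0 in both libraries. TNFRSF6B, the soluble decoy for FAS ligand, had 148 treated and 100 untreated counts, at a log2 ratio of -0.08 (-0.45 to 0.31). All of its exon bases, 100%, are overlapped by other annotated genes, ARFRP1 and a read-through of RTEL1, and RTEL1 itself had 1754 treated and 1083 untreated counts. The value of TNFRSF6B is therefore uncertain.

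**Figure D2:**
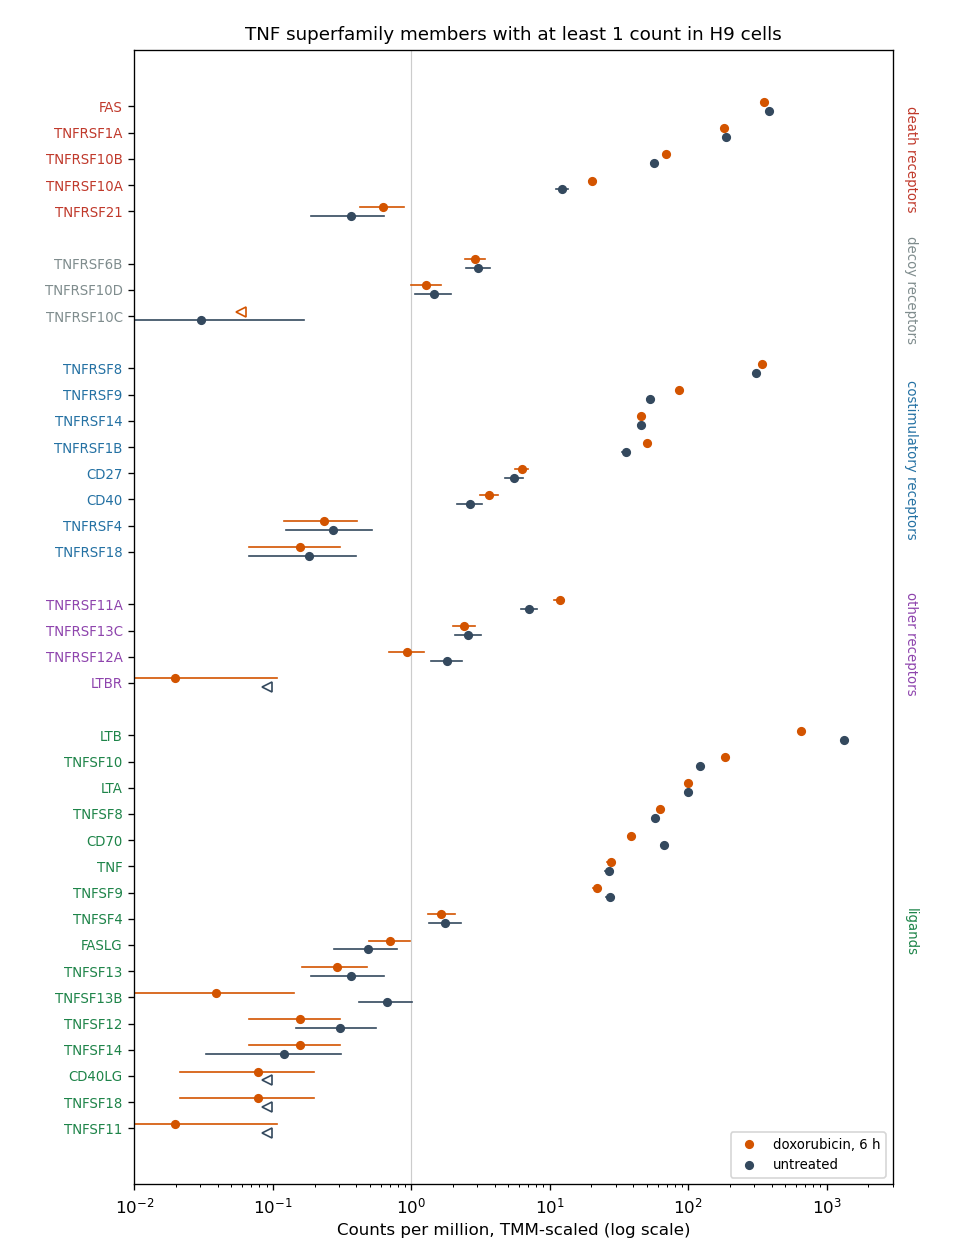
Level of each member with at least 1 count, in CPM on a log axis, in the doxorubicin library (orange, upper) and the untreated library (dark, lower), with exact 95% Poisson intervals; open triangles mark the limit of 3 counts where a library had 0. LTB, FAS and TNFRSF8 stand at the top in both libraries, followed by TNFSF10 (184 CPM) and TNFRSF1A (182 CPM) in treated cells and by TNFRSF1A (188 CPM) in untreated cells, and the members below 1 CPM have wide intervals.

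Of 8 costimulatory receptors 6 were measured, and all 6 had a log2 ratio above 0, from 0.01 to 0.70, with 1 past the size rule. Among all measured genes 50.7% lay above 0 and 7.26% were called higher. The median of the 6 was 0.32, or 0.43 after adjustment for length and GC content. TNFRSF9 (4-1BB, CD137), which is induced on activated T cells, had 4411 treated and 1745 untreated counts, or 85.9 CPM in treated and 53.0 CPM in untreated cells. It was 1.62-fold higher with doxorubicin (1.53 to 1.71), and its adjusted log2 ratio of 0.58 (0.50 to 0.66) fell just short of the 1.5-fold limit. TNFRSF1B (TNFR2), the TNF receptor without a death domain, had 2601 treated and 1163 untreated counts. It was 1.43-fold higher (1.34 to 1.54), below the limit, at a log2 ratio of 0.52 here and 0.59, past the limit, under total-count scaling. Adjusted for length and GC content it was at 0.40 (0.30 to 0.50), below the limit.

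TNFRSF8 (CD30), a receptor known from Hodgkin and other lymphomas, was the most abundant of the costimulatory receptors, with 17565 treated and 10114 untreated counts and a log2 ratio of 0.16 (0.12 to 0.19). Its adjusted log2 ratio was 0.05 (0.02 to 0.09). TNFRSF8 took 59.9% of the TPM summed over these receptors in treated cells and 61.9% in untreated cells. TNFRSF14 (HVEM) had 2359 treated and 1502 untreated counts, and its log2 ratio of 0.01 ran from -0.08 to 0.10. CD27, the receptor of CD70, had 323 treated and 183 untreated counts and a log2 ratio of 0.18 (-0.09 to 0.45). Neither of these ratios exceeded its counting error, but after adjustment TNFRSF14 was at 0.28 (0.19 to 0.38) and CD27 at 0.46 (0.19 to 0.73), above 0 and still within the size limit. CD40, best known on antigen-presenting cells, had 187 treated and 87 untreated counts. Its log2 ratio was 0.46 (0.09 to 0.85), below the limit, and 0.60 (0.23 to 0.99), past it, after adjustment. TNFRSF4 (OX40), with 12 treated and 9 untreated counts, and TNFRSF18 (GITR), with 8 treated and 6 untreated, were close to the detection limit.

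Of the 7 other receptors 3 were measured. TNFRSF11A (RANK), the receptor of RANK ligand known from osteoclasts and dendritic cells, had 604 treated and 234 untreated counts. It was 1.65-fold higher with doxorubicin (1.42 to 1.93), but its adjusted log2 ratio was 0.35 (0.13 to 0.57). TNFRSF12A (Fn14), the receptor of TWEAK, had 48 treated and 60 untreated counts, just over the minimum in sum. It was 1.95-fold lower (1.31 to 2.91), at an adjusted log2 ratio of -0.32 (-0.91 to 0.24). TNFRSF13C, the BAFF receptor of B cells, had 123 treated and 85 untreated counts and a log2 ratio of -0.11 (-0.52 to 0.31). LTBR, the lymphotoxin beta receptor, which stromal and epithelial cells carry, had 1 treated count and 0 untreated. TNFRSF13B (TACI), TNFRSF17 (BCMA) and TNFRSF19 (TROY) had 0 in both.

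**Figure D3:**
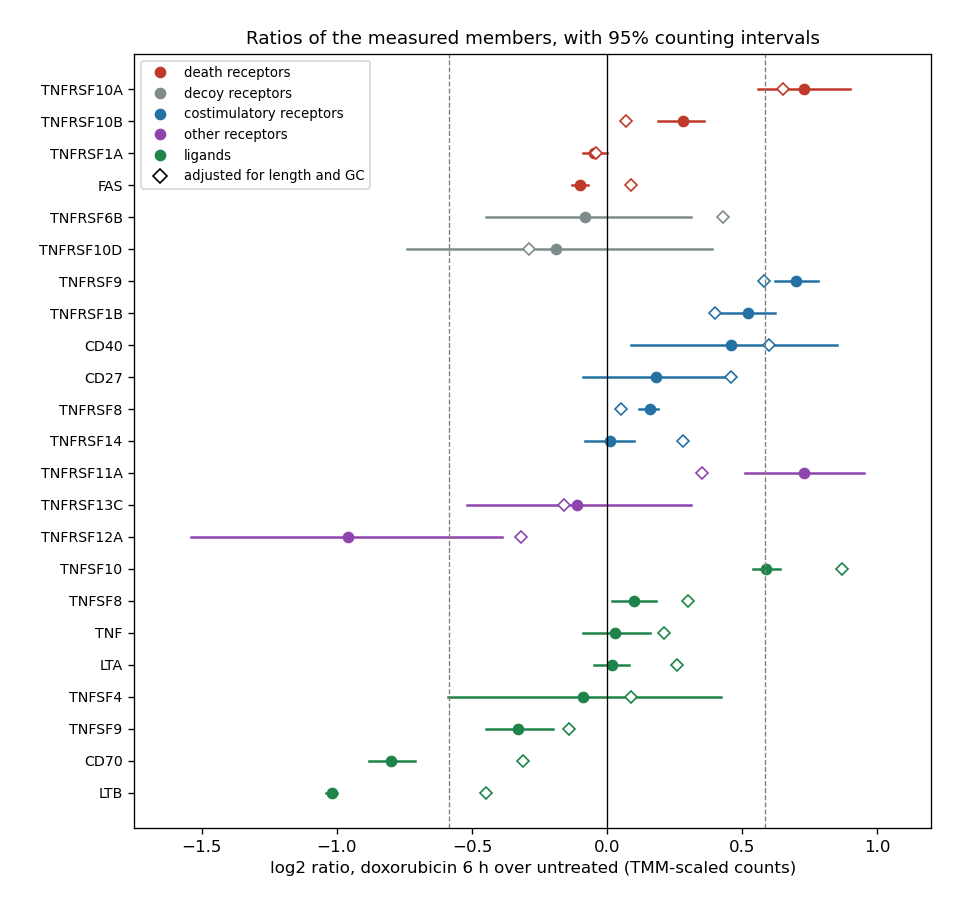
Log2 ratio of doxorubicin over untreated for the 23 measured members, by role, as filled circles with 95% counting intervals; open diamonds are the ratios adjusted for length and GC content, and dashed lines mark 1.5-fold. The 6 costimulatory receptors lie at or right of 0, and with the adjustment LTB lies at -0.45 in place of -1.02 and CD70 at -0.31 in place of -0.80.

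Of 17 ligands 8 were measured, with 1 higher (TNFSF10), 2 lower (LTB and CD70) and a median log2 ratio of -0.04, or 0.15 after adjustment. Over all measured genes 7.26% were higher and 9.57% lower, and calls in so few members say little about the class. LTB, the membrane-anchoring subunit of lymphotoxin alpha/beta trimers, had the highest level of the whole family, with 33508 treated and 43558 untreated counts. Per transcript length it ranked above 99.7% of all genes in treated and 99.8% in untreated cells. Its log2 ratio was -1.02, a 2.03-fold lower level with doxorubicin (2.00 to 2.06), and -0.45 (-0.47 to -0.43), within the size limit, after adjustment. LTB made up 73.2% of the summed ligand TPM in treated cells and 84.8% in untreated cells. Without it the other 16 ligands summed to 22435 treated and 13287 untreated counts, a log2 ratio of 0.11 (0.08 to 0.15). This sum is not adjusted for length and GC content. TNFSF10 alone gave 9428 of its treated and 4014 of its untreated counts, so it does not show a shared direction of the 16.

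LTA, the secreted lymphotoxin subunit that pairs with LTB, had 5156 treated and 3272 untreated counts and a log2 ratio of 0.02 (-0.05 to 0.08). TNF had 1412 treated and 884 untreated counts and a log2 ratio of 0.03 (-0.09 to 0.16). Both thus differed between the libraries by less than their counting error, although after adjustment LTA was at 0.26 (0.20 to 0.33) and TNF at 0.21 (0.09 to 0.33), still within the size limit. TNFSF10 (TRAIL), the ligand of DR4 and DR5, had 9428 treated and 4014 untreated counts. It was 1.51-fold higher with doxorubicin (1.45 to 1.56), only just past the size limit. Adjustment raised its log2 ratio of 0.59 to 0.87 (0.82 to 0.93), the highest of the measured members. FASLG, the FAS ligand of cytotoxic T cells, had 36 treated and 16 untreated counts and a log2 ratio of 0.50 (-0.36 to 1.48), so no difference was detectable at this depth. TNFSF15 (TL1A) had 0 counts in both libraries.

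Among ligands of costimulatory receptors, CD70 had 1965 treated and 2188 untreated counts, or 38.3 CPM in treated and 66.4 CPM in untreated cells. It was 1.74-fold lower with doxorubicin (1.63 to 1.85), and at -0.31 (-0.40 to -0.22) after adjustment. No other ligand of this group was called. TNFSF8 (CD30 ligand) had 3192 treated and 1907 untreated counts and a log2 ratio of 0.10 (0.02 to 0.18). TNFSF9 (4-1BB ligand) had 1119 treated and 900 untreated counts, a log2 ratio of -0.33 (-0.45 to -0.20) that was below the size limit and was -0.14 after adjustment. TNFSF4 (OX40 ligand) had 85 treated and 58 untreated counts, at -0.09 (-0.59 to 0.42). TNFSF14 (LIGHT) had 8 treated and 4 untreated counts, and CD40LG (CD40 ligand) and TNFSF18 (GITR ligand) each had 4 treated and 0 untreated.

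The remaining ligands had counts near the detection limit. TNFSF13B (BAFF), a B cell survival factor, had 2 treated and 22 untreated counts, which sum to fewer than the minimum of 100. Its log2 ratio was -3.81, with a counting interval from -7.23 to -2.08. TNFSF13 (APRIL) had 15 treated and 12 untreated counts and TNFSF12 (TWEAK) had 8 treated and 10 untreated. The annotation gives 55.5% of the exon bases of TNFSF13 and 29.4% of those of TNFSF12 as shared with their read-through transcript, which had 0 counts. All exon bases of the read-through, 100%, are overlapped by TNFSF12 and TNFSF13. How reads on shared bases were counted is unknown, so the values of TNFSF12, TNFSF13 and the read-through are uncertain. TNFSF11 (RANK ligand) had 1 treated count and 0 untreated.

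Within each library, TPM values order the members by level. In treated cells the order from the top was LTB (1912 TPM), FAS (363), TNFSF10 (247), TNFRSF8 (244) and TNFRSF1A (215). In untreated cells it was LTB (3244 TPM), FAS (326), TNFRSF1A (186), TNFRSF8 (183) and CD70 (160). TNFSF10 stood at place 3 in treated and at place 7 in untreated cells, while CD70 stood at place 7 in treated and at place 5 in untreated cells. Places 3 and 4 differed by little in either library, and each TPM rests on 1 annotated transcript length per gene. TPM does not remove the trend of the ratios with length described above, so changes of place between the libraries carry it.

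Ligands and receptors were then set side by side for 18 textbook pairs. Both partners were measured in 9 pairs, only the receptor in 6 and only the ligand in 2. TNFSF10 and TNFRSF10A were both called higher, at log2 ratios of 0.59 and 0.73, whereas TNFRSF10B, the TRAIL receptor at the higher level, was at 0.28 and not called. For TNFSF9 and TNFRSF9 the ligand was at -0.33 and the receptor at 0.70, and for CD70 and CD27 the ligand was at -0.80 and the receptor at 0.18. TNF and LTA, at 0.03 and 0.02, differed little, like their receptor TNFRSF1A, while their receptor TNFRSF1B was at 0.52. These ratios are not adjusted for length and GC content. After adjustment LTA (0.20 to 0.33) and TNF (0.09 to 0.33) lay apart from TNFRSF1A (-0.08 to 0.01). Both then overlapped TNFRSF1B (0.30 to 0.50). TNFSF8 (0.21 to 0.38) then lay apart from TNFRSF8 (0.02 to 0.09). TNFSF9 with TNFRSF9, CD70 with CD27 and TNFSF10 with TNFRSF10B stayed apart. For TNFSF10 (0.82 to 0.93) and TNFRSF10A (0.48 to 0.82) the adjusted intervals met only at their rounded edge. The most abundant ligand, LTB, had a receptor with 1 count in all, and FAS, the most abundant receptor, a ligand with 36 treated and 16 untreated counts.

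**Figure D4:**
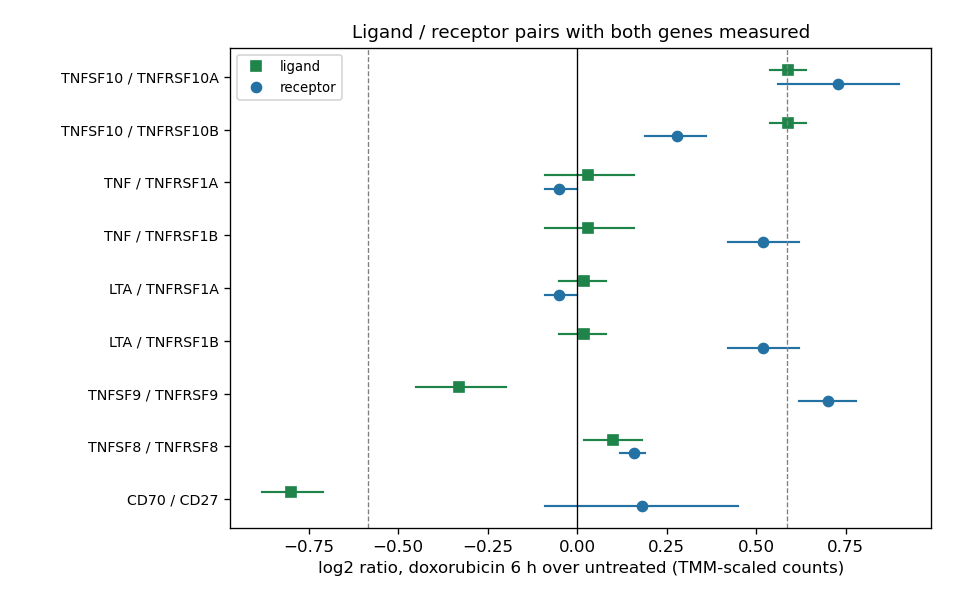
Log2 ratio of doxorubicin over untreated for ligand (green squares) and receptor (blue circles) in the 9 pairs with both genes measured, with 95% counting intervals. The ratios are not adjusted for length and GC content, and dashed lines mark 1.5-fold. Ligand and receptor intervals overlap for TNFSF10 with TNFRSF10A, for TNFSF8 with TNFRSF8 and for TNFRSF1A with either of its ligands, and lie apart for the other 5 pairs, namely TNFSF10 with TNFRSF10B, TNFRSF1B with TNF and with LTA, TNFSF9 with TNFRSF9, and CD70 with CD27.

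Genes downstream of the receptors were set beside the same shares of all measured genes, 7.26% higher and 9.57% lower. In a list of 15 death receptor signalling genes 14 were measured, with 1 higher, 1 lower and a median log2 ratio of -0.11. These counts are near the shares over all genes and say nothing particular about the list. RIPK1, the kinase that joins TNFR1 signalling to survival or death, was 1.57-fold higher with doxorubicin (1.42 to 1.74; 1258 treated and 514 untreated counts). FAIM, an inhibitor of FAS-induced apoptosis, was 1.60-fold lower (1.36 to 1.89; 292 treated and 300 untreated counts). Adjusted for length and GC content they were at 0.40 and -0.41, and neither was called. In a list of 29 TRAF and NF-kappaB signalling genes, all measured, 2 were higher and 0 lower, at a median of 0.12. These were REL, an NF-kappaB subunit (1704 treated and 493 untreated counts, 2.22-fold), and IKBKG, the regulatory subunit of the IkappaB kinase (1240 treated and 496 untreated counts, 1.60-fold). They share 50.3% and 45.6% of their sampled stretches of 50 bases with other annotated genes, so their values are uncertain. Of 5 shedding genes 0 were called. The protease ADAM10 had 4745 treated and 2606 untreated counts at a log2 ratio of 0.22 (0.15 to 0.29). The intramembrane protease SPPL2B, with 3003 treated and 1690 untreated counts at 0.19 (0.10 to 0.28), had the highest level of the 5 per transcript length, at 44.5 TPM in treated and 32.7 TPM in untreated cells.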

How the data were processed

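The authors deposited raw read counts per gene symbol for both libraries, as whole numbers with no scaling or length correction. The submitters' processing notes name HISAT2, featureCounts and hg19. Versions, annotation, strand setting and the handling of multi-mapped reads were not given there.

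Counts were scaled with TMM in edgeR 4.0.16 (R 4.3.3), and log2 ratios were formed after adding 0.5. Exact Clopper-Pearson intervals at 95% came from scipy 1.17.1. A count of 0 allows up to 3 counts. Reads carry no molecular identifiers, and 1 library per condition shows nothing of the variation between cultures. The depth ratio of treated over untreated was 1.49. Calculations were tested on simulated data.

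Transcript length, coding length, GC content, overlaps and shared stretches came from GENCODE release 29, on another build than the counts, using for each gene its longest transcript paired with RefSeq where there was one. It gave all 3 properties for 11020 of 11244 measured genes (98.0%). Splines had 4 degrees of freedom. Members, lists and the naming rule (all measured members, plus the list genes past the size rule, or the 2 with the most counts where none passed) were chosen with earlier results of these data known. Length windows were chosen after these values were seen. Alternatives included DESeq2 1.42.0 size factors and total-count scaling.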

Additional observations from a re-analysis of the deposited data

How the results depend on the processing

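No paired analysis was possible because each condition had 1 library, and for the same reason none could be left out. Of the 23 measured members, all kept their side of the size rule and their direction with DESeq2 size factors, a 99% interval and an added count of 5, and those still measured did so with the other count minimums. No member past the rule changed sign under any alternative run. Of those not past it, TNFRSF1A changed sign under total-count scaling (0.02), and FAS (0.09), TNFRSF6B (0.43) and TNFSF4 (0.09) did with the adjustment for length and GC content. Total-count scaling moved the median of all genes by 0.07 on the log2 scale, gave 2 higher costimulatory receptors and a death receptor median of 0.18. With no count minimum beyond 1 the medians were 0.28 for death, 0.17 for costimulatory and 0.31 for other receptors. TNFSF13B was then called lower too, which gave 4 lower members, 3 of them ligands, beside 1442 lower genes in all. With a minimum of 200 the other receptors had 0 lower and a median of 0.31. A lower limit, 0.32 on the log2 scale, gave 3 higher costimulatory receptors, 2294 higher and 2416 lower genes in all, 2 higher and 2 lower in death receptor signalling, and 9 higher and 3 lower in TRAF and NF-kappaB signalling. A 2-fold limit left 0 higher members (death, costimulatory and other receptors and ligands 0 each), 1 lower member, the ligand LTB, and 0 lower other receptors. It gave 128 higher and 175 lower genes in all, 0 and 0 in death receptor signalling and 1 higher in TRAF and NF-kappaB signalling. Adjustment for length and GC content left 0 lower members (0 lower ligands, 0 higher and 0 lower other receptors), 448 higher and 417 lower genes in all, and 0 of either in death receptor signalling. The medians were then 0.21 for all members, 0.43 for costimulatory receptors and 0.15 for ligands, and 5 members lost and 1 gained a call. For these changes the cause was not tested beyond what each alternative's construction shows.

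Depth limits the 20 members under 100 counts, for which differences of the size called here were mostly not detectable.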

Other observations

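Some members lie side by side in the genome. LTA, TNF and LTB are neighbours in the major histocompatibility complex on chromosome 6, and their log2 ratios were 0.02, 0.03 and -1.02, or 0.26, 0.21 and -0.45 after adjustment for length and GC content. TNFSF9, CD70 and TNFSF14 lie close together on chromosome 19. TNFSF9 was at -0.33 and CD70 at -0.80, and TNFSF14 had 8 treated and 4 untreated counts. TNFRSF8 and TNFRSF1B are neighbours on chromosome 1, at 0.16 and 0.52.

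Superfamily members whose symbols fall outside the naming used here were also looked at. RELT, a TRAF-binding receptor, had 1260 treated and 678 untreated counts and a log2 ratio of 0.25 (0.12 to 0.39). EDA, the ligand ectodysplasin A, had 315 treated and 189 untreated counts at 0.09 (-0.17 to 0.36). Neither was past the size rule. EDAR, a receptor of EDA, had 32 treated and 12 untreated counts, NGFR, the low-affinity neurotrophin receptor, had 2 in each library, and EDA2R, another receptor of EDA, had 0 in both.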
